A study of Homo sapiens with 9 samples.

Results

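The genes described here are 33 members of the p53 and DNA damage response, followed in HEK293T cells exposed to a pair of fluorogenic aptamer ligands. They were taken from a list of names, matched by current or previous symbol to the deposited tables and then by gene ID to the counts, and all 33 were found among 57500 genes. Of these, 26 are p53 targets and 7 are repair and checkpoint genes that act beside or upstream of p53. HEK293T, an established human embryonic kidney line, carries adenoviral E1A and E1B and SV40 large T antigen. Among these are viral proteins that bind or block p53, and all 3 groups shared this background. Cells were kept for 5 h with 10 µM HBC530, with 10 µM MsOc3HBC or with the vehicle DMSO, 3 biological replicates each, and poly(A)-selected RNA of the 9 samples was sequenced. HBC530 binds the Pepper RNA aptamer without a covalent bond, whereas MsOc3HBC carries a propyl chain with a mesylate leaving group that can alkylate a guanine. The transcriptomes were compared to ask what the ligands do to cellular gene expression.

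The transcription factor p53 is kept low by the ubiquitin ligase MDM2 and is released from it when the kinases ATM and ATR, with CHEK1 and CHEK2, report damaged or stalled DNA. It binds a pair of short palindromic elements and switches on genes for cell cycle arrest, apoptosis and repair, together with its own inhibitors. In HEK293T this route is blunted at the protein. Separately, several targets can be transcribed without p53 in cells of either kind, for example by factors of the integrated stress response.

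Library totals ran from 28056929 to 62205366 counts on genes, of which the members took 0.152 to 0.164%. The levels below are CPM, counts brought to a common library total with TMM factors over the 9 libraries. Levels are compared between genes only as TPM, which also divides by exonic length. This length covers all annotated exons of a gene, so TPM is too low for genes whose main transcripts are shorter. A lower level cannot be told apart from fewer transcribing cells in such bulk samples. All 6 markers of the line were present, NEFL, NEFM, INA, LIN28B and VIM between 15.7 and 171 TPM and PAX2 lower, at 1.02 to 2.15 TPM. Of 7 markers of other cell types, PTPRC, CD3E, ALB, COL1A2 and PECAM1 had at most 6 counts in any library, and COL1A1 (6.02 to 12.5 TPM) and EPCAM (0.639 to 1.40 TPM) were measured at levels near or above that of PAX2. Replicate 3 of HBC530 and replicate 3 of MsOc3HBC stood apart, at 36.1 and 44.2 on the first principal component against -19.1 to -3.57 for the other 7 libraries, and values without them are given beside the results that they moved most.

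Short promoter windows were searched for letters bound by p53 and by a stress factor, and most members with a window held neither in it. Sites outside these windows were not searched, so a missing match does not mean that a gene lacks a site. A window from 250 bases before to 50 after the RefSeq start (GRCh38.p14) was held for 28 members, 21 of them p53 targets. GADD45A, TNFRSF10B, TP53INP1, PHLDA3 and RRM2B had no window. Searched on both strands for the p53 consensus site of 20 letters, with its core letters kept, at most 2 other letters off and no gap, the windows of FAS and AEN held a match. That is 9.52% of the p53 targets with a window, against 0.201% of the 27305 genes with one. With a gap of up to 13 bases between the elements DDB2 was added (14.3% against 1.81%), and no repair and checkpoint gene had a match in either search. The matches of FAS, a death receptor, and AEN, an apoptotic nuclease, are shown with the site in capitals and flanking letters in lower case. The printed stretches are chr10:88991297-88991340 for FAS and chr15:88621294-88621337 for AEN, both on the plus strand:

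FAS: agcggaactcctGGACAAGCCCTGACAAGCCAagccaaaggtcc

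AEN: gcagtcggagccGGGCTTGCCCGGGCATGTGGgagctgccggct

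The FAS site runs from 122 to 103 bases before its start and the AEN site from 34 to 15 bases before its start. The letters TGATGNAA, bound by the stress factor ATF4 with C/EBP partners, were found in 1 of the 21 p53 targets, PLK3, a stress-responsive kinase (4.76%, against 4.46% of all genes). This match is printed with its flanking letters, a stretch at chr1:44800232-44800263 on the plus strand. The gene CHAC1, which degrades glutathione and is a marker of the integrated stress response, is set beside it. Its match is on the other strand within the printed stretch chr15:40953250-40953281:

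PLK3: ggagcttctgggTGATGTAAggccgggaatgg

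CHAC1: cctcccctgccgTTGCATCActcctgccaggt

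A match is a description of the letters only, and the motifs were chosen with the expression values known. FAS and AEN, which carry ungapped p53 matches, did not pass the main test in any comparison below, and neither did any other member.

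All 33 members were transcribed in all 9 libraries, and all passed the filter on low counts in every comparison. With DMSO the highest level was that of H2AX, the histone variant phosphorylated around double-strand breaks, at 501 ± 50.3 TPM (SD, n = 3). It was followed by the apoptotic effector BAX at 151 ± 8.04 TPM, the apoptosis inhibitor TRIAP1 at 150 ± 4.92 TPM and the cyclin CCNG1 at 138 ± 9.40 TPM, and these neighbours did not differ beyond their spread. CDKN1A, which encodes the cyclin-dependent kinase inhibitor p21 and is the best known p53 target, was 14th in this order at 29.4 ± 1.11 TPM, and MDM2 was at 18.0 ± 2.61 TPM. The order of these 2 rests on annotated lengths of 3050 bases for CDKN1A and 13269 bases for MDM2. In CPM, which does not divide by length, MDM2 was the higher, with means of 69.5 against 26.1. The lowest were FAS at 2.21 ± 0.467 TPM and the autophagy and apoptosis factor TP53INP1 at 1.96 ± 0.212 TPM, also not apart beyond their spread.

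With HBC530, no member passed an adjusted p of 0.05 against DMSO. The lowest adjusted p of a member was 0.751, and 0.017% of the 17684 genes tested were called (edgeR quasi-likelihood test, Benjamini-Hochberg adjustment). At an unadjusted p under 0.05 there was 1 member, GADD45A, against 5.07% of all genes, and no member was called by DESeq2, limma-voom or any other alternative run. The median log2 fold change was -0.03 over the p53 targets and -0.11 over the repair and checkpoint genes, against 0.00 over all genes tested. All 33 confidence intervals (95%) lay within a log2 fold change of 1 in either direction, which held for 90.1% of all genes. Of the members, 31 lay within 0.5 (59.7% of all genes), and FAS and ATR had wider intervals. The 3 libraries of HBC530 lay wholly above or below those of DMSO for 7 members against 13.8% of all genes, with 2 members higher (7.17% of all genes) and 5 lower (6.64%).

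With MsOc3HBC, no member passed an adjusted p of 0.05 against DMSO either, while 0.154% of 17514 genes did. At an unadjusted p under 0.05 there were 5 members, against 10.9% of all genes. GADD45A, BBC3, PMAIP1 and RPS27L were estimated higher and TNFRSF10B lower. The median log2 fold change was 0.04 over the p53 targets and 0.02 over the repair and checkpoint genes, against 0.01 over all genes. Every member's interval lay within a log2 fold change of 1 (88.3% of all genes), and 28 lay within 0.5 (55.9% of all genes). The exceptions at the narrower limit were GADD45A, BBC3, PMAIP1, FAS and RPS27L. The libraries of 6 members did not overlap with those of DMSO, against 18.3% of all genes, with 5 members higher (9.35% of all genes) and 1 lower (8.96%). GADD45A was called with DESeq2 (where 1.04% of genes were called), without a filter on low counts (0.706%) and with the replicate block (0.851%). The study's methods used a looser limit on the adjusted p, 0.5, beside a change of more than 1 on the log2 scale. The study applied it to DESeq2 results, and here it was applied to the edgeR fits, so the shares are not the study's own counts. No member was past it with HBC530 (0.0226% of all genes), with MsOc3HBC (0.56%) or between the ligands (0.0115%).

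Between the ligands, which differ by the reactive chain and were given at the same dose and time, no member passed the test and 0% of 17397 genes did in edgeR. At an unadjusted p under 0.05 there were 4 members and 7.32% of all genes, and DESeq2 called 0.551% of the 9977 genes it adjusted but no member. MDM2, MDM4 and PMAIP1 were estimated higher with MsOc3HBC than with HBC530, and H2AX lower. Samples with the same replicate number deviated together in this comparison, but so did replicate 2 of MsOc3HBC and replicate 1 of HBC530 (correlation of 0.32). With the replicate number as a block 6 members were called, 5 higher and 1 lower, where 11.4% of all genes were called. All 33 intervals of the unblocked comparison lay within a log2 difference of 1 (86.6% of all genes), and 21 lay within 0.5 (51.0% of all genes). The libraries of 8 members did not overlap between the ligands, against 15.4% of all genes, with 5 members higher (6.85%) and 3 lower (8.5%). The median difference was 0.07 over the p53 targets and 0.13 over the repair and checkpoint genes, against 0.02 over all genes. The comparisons with DMSO share its 3 libraries, so their values are only set side by side here.

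**Figure D1:**
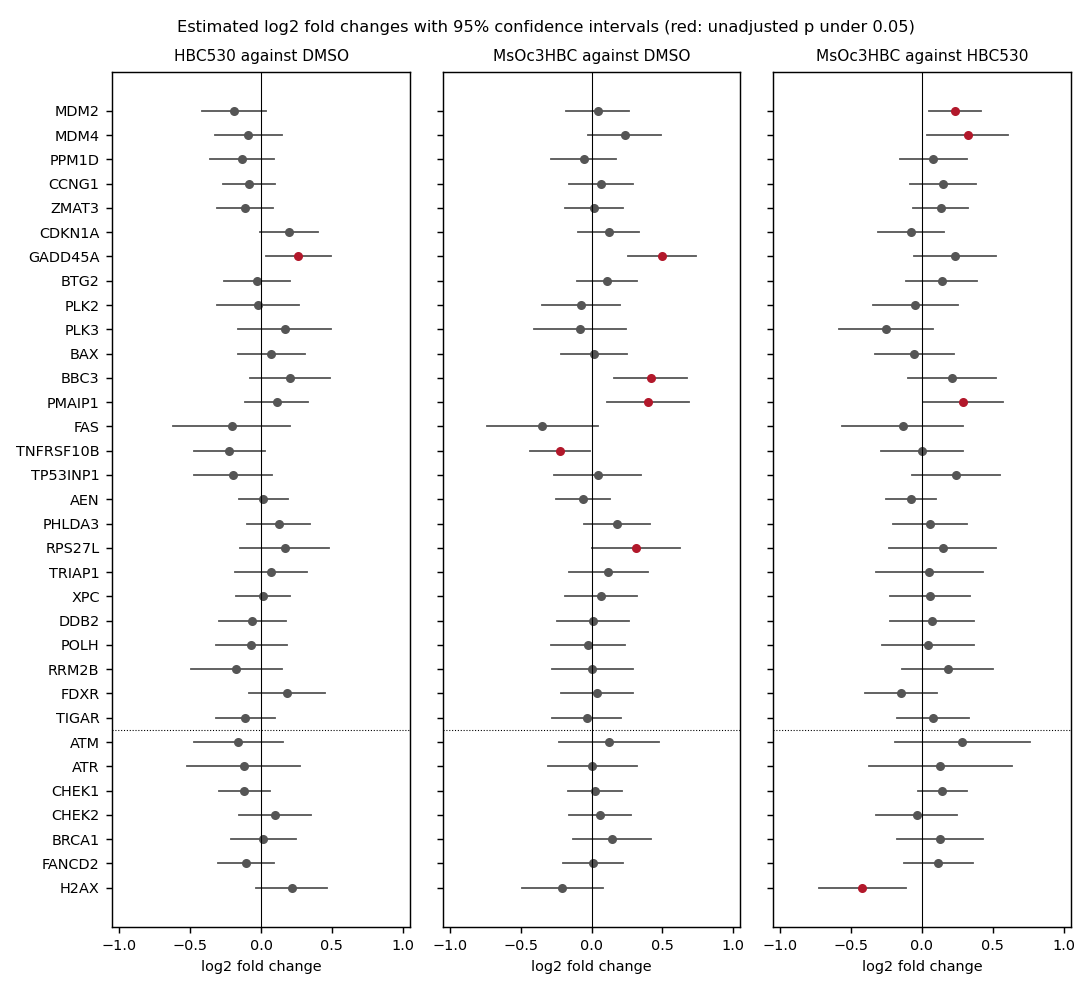
Log2 fold change of each of the 33 members in the 3 comparisons, with the 95% confidence interval as a horizontal bar; points in red have an unadjusted p under 0.05. The p53 targets stand above the dotted line and the repair and checkpoint genes below it, and every bar lies between -1 and 1.

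Among the 5 targets for cell cycle arrest, GADD45A, which binds PCNA and slows entry into mitosis, had the smallest p against DMSO with either ligand. It lies on chromosome 1 (67685061 to 67688338, plus strand, GRCh38). Its level was 32.4, 34.9 and 31.5 CPM in replicates 1 to 3 with DMSO, 36.2, 37.8 and 44.8 CPM with HBC530 and 46.4, 41.0 and 52.0 CPM with MsOc3HBC. All 6 ligand libraries lay above all 3 DMSO libraries, while the ligands overlapped. The log2 fold change was 0.26 ± 0.10 (SE) with HBC530 (adjusted p = 0.751) and 0.50 ± 0.11 with MsOc3HBC (adjusted p = 0.142). The latter is a 1.41-fold level with an interval from 1.20 to 1.67. The adjusted p of this change ran from 0.00992 to 0.612 over 16 alternatives. Without replicate 3 of MsOc3HBC it was 0.41 on the log2 scale with an adjusted p of 0.0954. The value with HBC530 was 0.17 without replicate 3 of that ligand.

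CDKN1A (chromosome 6, 36676460 to 36687339, plus strand) had small estimates. It measured 25.6, 27.0 and 25.7 CPM with DMSO, 28.2, 29.4 and 32.1 CPM with HBC530 and 26.1, 28.1 and 30.8 CPM with MsOc3HBC. The HBC530 libraries lay just above those of DMSO and the MsOc3HBC libraries overlapped both. Its log2 fold change was 0.20 ± 0.09 with HBC530 (interval 0.00 to 0.40, adjusted p = 0.751) and 0.12 ± 0.10 with MsOc3HBC (interval -0.10 to 0.34, adjusted p = 0.674). The value with MsOc3HBC was 0.06 without its replicate 3. The difference between the ligands was -0.08 with an interval from -0.31 to 0.15, and it ranged from -0.14 without replicate 3 of MsOc3HBC to -0.02 without replicate 1. The antiproliferative BTG2 and the kinases PLK2 and PLK3 had log2 fold changes between -0.08 and 0.17 against DMSO with either ligand, and BTG2 with MsOc3HBC was the only one of them whose libraries did not overlap with those of DMSO.

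The feedback group, which restrains p53 or processes RNA downstream of it, was estimated lower with HBC530 for 5 of 5 members, with log2 fold changes from -0.19 to -0.09 and none passing the test. With MsOc3HBC, 4 of 5 were estimated higher, from -0.06 to 0.23, also without a call. MDM2 (chromosome 12, 68808176 to 68850686, plus strand) was at 79.2, 64.9 and 64.4 CPM with DMSO, 62.7, 62.2 and 57.5 CPM with HBC530 and 70.0, 73.2 and 71.1 CPM with MsOc3HBC. Every MsOc3HBC library lay above every HBC530 library, and replicate 1 of DMSO lay above them all. The log2 fold change of MDM2 against DMSO was -0.19 ± 0.10 with HBC530 (adjusted p = 0.751) and 0.04 ± 0.10 with MsOc3HBC (adjusted p = 0.901). Without replicate 1 of DMSO the former was -0.09, and the sign of the latter turned when replicate 2 or replicate 3 of DMSO was left out. MsOc3HBC exceeded HBC530 by 0.23 ± 0.08 (interval 0.05 to 0.42, adjusted p = 0.643, and 0.0137 with the replicate block).

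MDM4, the relative of MDM2 that masks the activation domain of p53 (chromosome 1, 204516379 to 204558120, plus strand), was at 31.4, 26.6 and 30.0 CPM with DMSO. It was at 30.6, 25.7 and 26.2 CPM with HBC530 and at 39.7, 32.0 and 31.4 CPM with MsOc3HBC. Its MsOc3HBC libraries lay above all the others, the lowest of them only just. The log2 difference between the ligands was 0.32 ± 0.12 (adjusted p = 0.643, and 0.00542 with the block), and 0.21 without replicate 1 of MsOc3HBC. The remaining members of the group are the p53 phosphatase PPM1D, CCNG1 and the RNA-binding ZMAT3. Their differences between the ligands were 0.08, 0.15 and 0.13, and no call was made for them with or without the block.

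**Figure D2:**
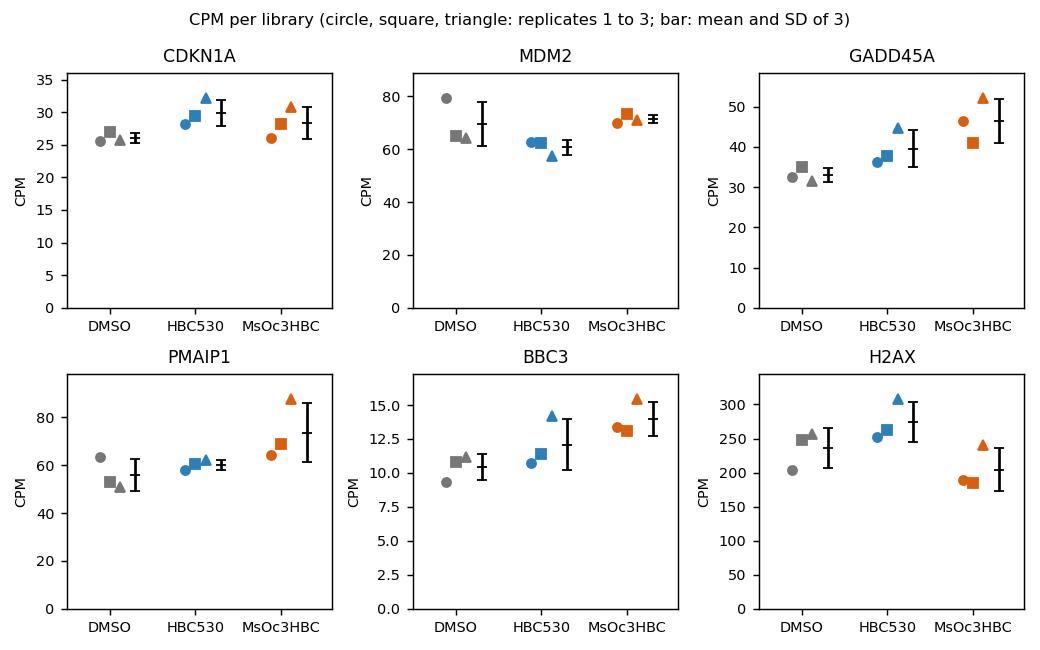
Level in CPM of 6 members in each library (circle, square and triangle for replicates 1 to 3), with the mean and SD of 3 libraries as a black bar; each axis starts at 0. GADD45A is above DMSO in all 6 ligand libraries, CDKN1A hardly moves, and H2AX is lower in each MsOc3HBC library than in each HBC530 library.

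Of the 10 apoptosis genes, 7 were estimated higher and 3 lower with either ligand, with medians of 0.07 for HBC530 and 0.08 for MsOc3HBC on the log2 scale. BBC3, the BH3-only protein PUMA (chromosome 19, 47220822 to 47232766, minus strand), was at 9.36, 10.8 and 11.2 CPM with DMSO, 10.7, 11.4 and 14.2 CPM with HBC530 and 13.4, 13.1 and 15.4 CPM with MsOc3HBC. The MsOc3HBC libraries lay above all DMSO libraries, and the HBC530 libraries overlapped with both. Its log2 fold change with MsOc3HBC was 0.42 ± 0.12 (interval 0.16 to 0.67, adjusted p = 0.282). PMAIP1, the BH3-only protein NOXA, was at 63.5, 53.04 and 51.1 CPM with DMSO, 57.9, 60.7 and 62.1 CPM with HBC530 and 64.5, 68.7 and 87.6 CPM with MsOc3HBC. Its lowest MsOc3HBC library was just above the highest DMSO library, and replicate 3 was the highest of all. The log2 fold change of PMAIP1 with MsOc3HBC was 0.40 ± 0.13 (interval 0.11 to 0.69, adjusted p = 0.332), and its difference from HBC530 was 0.29 ± 0.12 (adjusted p = 0.678, and 0.0178 with the block). Without replicate 3 of MsOc3HBC these values of PMAIP1 were 0.26 and 0.15. For both genes no alternative gave a call against DMSO, with adjusted p from 0.0509 to 0.838 for BBC3 and from 0.0825 to 0.952 for PMAIP1.

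The TRAIL receptor TNFRSF10B was estimated lower. Its level was 52.4, 50.3 and 49.0 CPM with DMSO, 47.3, 46.5 and 35.9 CPM with HBC530 and 43.2, 46.9 and 39.6 CPM with MsOc3HBC. All 6 ligand libraries lay below those of DMSO, with replicate 3 the lowest of each ligand. The log2 fold change was -0.22 with each ligand, with an SE of 0.11 for HBC530 (adjusted p = 0.751) and of 0.10 for MsOc3HBC (adjusted p = 0.437). Without replicate 3 of the ligand it was -0.10 with HBC530 and -0.16 with MsOc3HBC. RPS27L, a ribosomal protein relative, was at 32.1, 25.1 and 25.3 CPM with DMSO, 27.7, 27.7 and 37.2 CPM with HBC530 and 31.8, 29.6 and 41.0 CPM with MsOc3HBC. Its groups overlapped, and replicate 3 was the highest library of each ligand. The log2 fold change of RPS27L with MsOc3HBC was 0.31 ± 0.14 (adjusted p = 0.458), and it was 0.16 without replicate 3 of MsOc3HBC. FAS had the lowest counts of the group and the widest interval, -0.74 to 0.04 with MsOc3HBC around an estimate of -0.35. BAX, AEN, TRIAP1, TP53INP1 and the AKT inhibitor PHLDA3 had log2 fold changes between -0.20 and 0.18 against DMSO.

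The 6 targets in repair and metabolism were the least moved with MsOc3HBC. They comprise the damage sensors XPC and DDB2 of nucleotide excision repair, the bypass polymerase POLH, the ribonucleotide reductase subunit RRM2B, the reductase FDXR and the glycolysis regulator TIGAR. Their log2 fold changes ran from -0.03 to 0.07 with MsOc3HBC, with a median of 0.01, and from -0.18 to 0.18 with HBC530. In none of the 3 comparisons did the libraries of any of the 6 separate. Between the ligands their differences ran from -0.15 to 0.18, and no call was made with the block.

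Among the repair and checkpoint genes, H2AX (chromosome 11, 119093854 to 119095467, minus strand) was the member with the largest difference between the ligands. Its level was 203, 248 and 257 CPM with DMSO, 252, 263 and 308 CPM with HBC530 and 188, 184 and 241 CPM with MsOc3HBC. Each MsOc3HBC library lay below each HBC530 library, and both ligands overlapped with DMSO. The log2 difference between the ligands was -0.42 ± 0.13 (interval -0.73 to -0.11, adjusted p = 0.643). It was -0.43 with the replicate block (adjusted p = 0.00067), -0.47 without replicate 3 of both ligands (adjusted p = 0.000128) and -0.27 with the block after trends with GC content and length were removed (adjusted p = 0.0295). Against DMSO it was 0.22 ± 0.11 with HBC530 (adjusted p = 0.751) and -0.21 ± 0.13 with MsOc3HBC (adjusted p = 0.581). With HBC530 it was 0.13 without replicate 3 of the ligand and 0.12 without replicate 1 of DMSO. With MsOc3HBC it ranged from -0.34 without replicate 3 of the ligand to -0.14 without replicate 3 of DMSO. H2AX makes both a polyadenylated and a stem-loop transcript, and poly(A) selection keeps the former. These are RNA levels, and phosphorylation of the histone was not measured here.

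CHEK1, the effector kinase of ATR, was at 78.6, 72.5 and 73.0 CPM with DMSO, 69.2, 69.2 and 67.8 CPM with HBC530 and 75.2, 77.7 and 74.4 CPM with MsOc3HBC. The HBC530 libraries were the lowest, apart from both other groups. The log2 fold change was -0.12 ± 0.08 with HBC530 (adjusted p = 0.751) and 0.02 ± 0.09 with MsOc3HBC (adjusted p = 0.937), and the ligands differed by 0.14 ± 0.08 (adjusted p = 0.708). ATM, ATR, CHEK2, the recombination factor BRCA1 and the Fanconi protein FANCD2 had log2 fold changes between -0.16 and 0.14 against DMSO, and none of their libraries separated from those of DMSO.

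**Figure D3:**
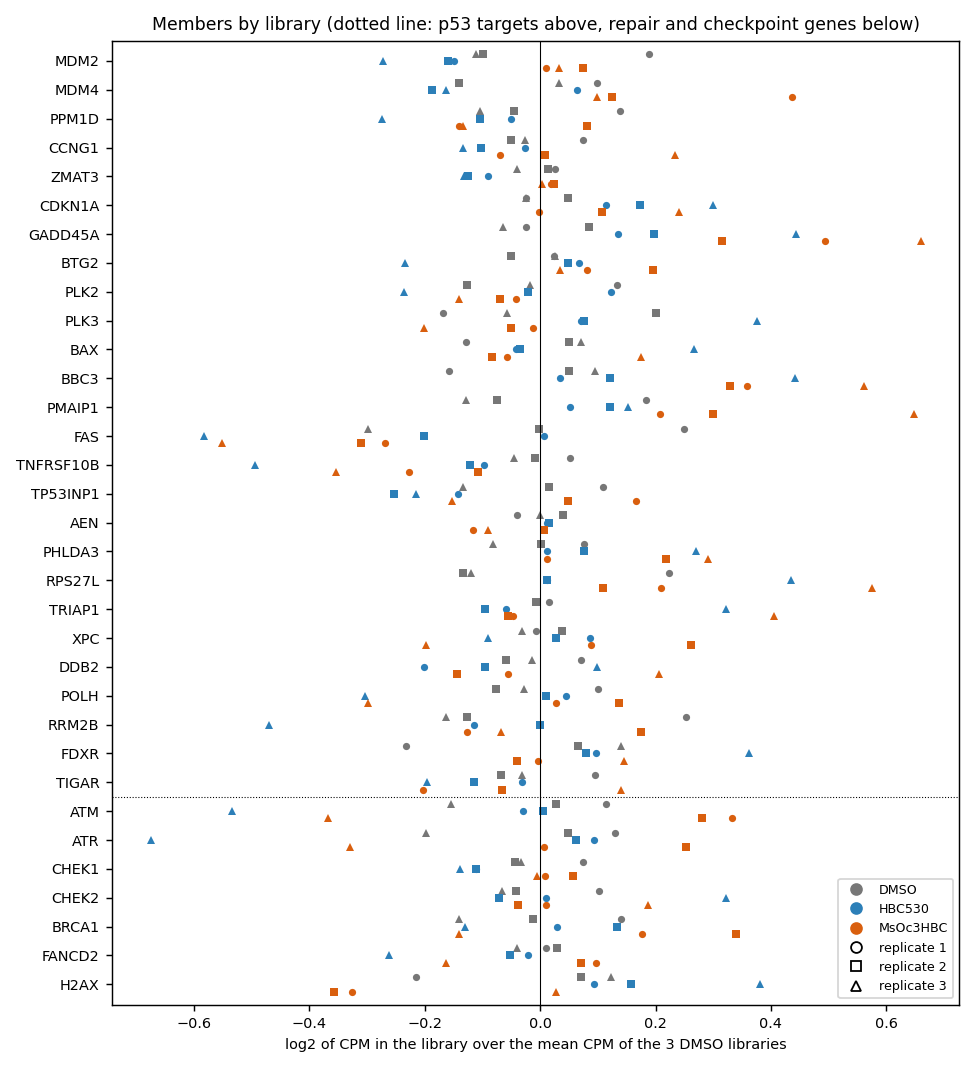
Log2 of the CPM of each member in each library over the mean of the 3 DMSO libraries; colour gives the treatment and the symbol the replicate. Points of replicate 3 (triangles) of the ligands often lie farthest from 0, for ATR at the left and RPS27L at the right.

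Ratios within the ligand pairs show the members that the block called. GADD45A and ATM are named here after their values were seen. The log2 ratio of MsOc3HBC to HBC530 in pairs 1 to 3 was 0.37, 0.31 and 0.26 for MDM4, 0.16, 0.23 and 0.31 for MDM2, and 0.36, 0.28 and 0.16 for ATM. It was 0.16, 0.18 and 0.50 for PMAIP1 and 0.36, 0.12 and 0.22 for GADD45A. For H2AX it was -0.42, -0.51 and -0.35. Each of these 6 members kept 1 sign in all 3 pairs, which adds no support because the block called them on these same pairs. Over the whole list, 20 of the 33 members kept 1 sign, as did 46.1% of all genes. Of the members 14 (42.4%) were higher in all pairs and 6 (18.2%) lower, against 23.1 and 22.9% of all genes. With the block, the 5 members called higher compare with 790 genes of 17397 (4.54%) and the 1 called lower with 1200 (6.9%). The blocked adjusted p was 0.0146 for ATM and 0.0262 for GADD45A. ATM was at 27.6, 26.0 and 22.9 CPM with DMSO, 25.0, 25.6 and 17.6 CPM with HBC530 and 32.1, 31.0 and 19.8 CPM with MsOc3HBC. Replicate 3 of each ligand lay below every DMSO library for ATM.

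The members called changed with the treatment of GC content, length and replicate 3. With the block and both trends removed, 3 members were called, GADD45A (adjusted p = 0.0205) and BBC3 (adjusted p = 0.0178) higher and H2AX lower, where 1.73% of all genes were called (0.845% higher, 0.886% lower). BBC3 is likewise named after its values were seen. Without replicate 3 of both ligands and without a block, 4 members were called, MDM2 (adjusted p = 0.0457), MDM4 (adjusted p = 0.0404) and ATM (adjusted p = 0.0106) higher and H2AX lower, where 9.16% of all genes were called (3.16% higher, 6% lower). H2AX was called in both of these fits and with the block alone. With both trends removed and no block no member was called, and several values were smaller. For HBC530 against DMSO the log2 fold change was then -0.06 for MDM2, 0.10 for H2AX, 0.12 for CDKN1A, 0.16 for GADD45A and -0.04 for CHEK1. Between the ligands it was 0.15 for MDM2, 0.16 for PMAIP1, 0.06 for CHEK1 and -0.26 for H2AX. Over 17 alternatives the adjusted p of the difference ran from 0.000128 to 0.999 for H2AX, from 0.0137 to 0.999 for MDM2, from 0.00542 to 0.999 for MDM4 and from 0.0178 to 0.999 for PMAIP1. It ran from 0.0106 to 0.999 for ATM, from 0.0205 to 0.999 for GADD45A and from 0.0178 to 0.999 for BBC3.

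The deviation of replicate 3 moved with annotated exonic length among the members, and the length of the transcripts present was not measured. Spearman's correlation between exonic length and the log2 level in replicate 3 minus the mean of replicates 1 and 2 was -0.44 with DMSO, -0.45 with HBC530 and -0.54 with MsOc3HBC over the 33 members, which share each library and its scaling. Over 18041 genes it was -0.22, -0.43 and -0.33. The size of the deviation differed more: its median over the members was 0.0945 with DMSO, 0.256 with HBC530 and 0.244 with MsOc3HBC on the log2 scale. ATM, with 22317 exonic bases the longest member, was lower in replicate 3 by 0.22, 0.52 and 0.67 in the same order, and ATR by 0.29, 0.75 and 0.46. TRIAP1, with 1442 bases the shortest, deviated by -0.01, 0.40 and 0.46, and H2AX by 0.20, 0.26 and 0.37. RPS27L, annotated with 9127 exonic bases, deviated by -0.17, 0.42 and 0.42. Whether its transcripts are as long as this was not tested, so it cannot be called an exception to the trend. The part of this deviation in the differences of ATM was not tested beyond the fits above. H2AX differed between the ligands by -0.47 without these libraries.

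**Figure D4:**
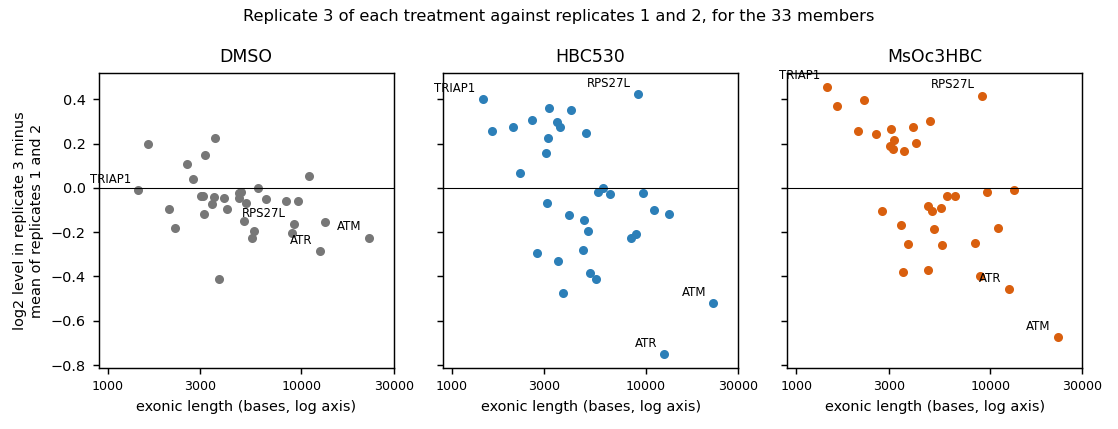
Log2 level in replicate 3 minus the mean of replicates 1 and 2 against exonic length on a log axis, for the 33 members in each treatment. TRIAP1 lies above 0 and ATM and ATR lie below it with both ligands, while the DMSO points stay closer to 0. The trend is loose. BTG2 (2757 bases), POLH (3540 bases) and FAS (3750 bases) also lie below 0 with both ligands, and RPS27L (9127 bases) lies above it.

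Other genes of the pathway were counted from lists of known members. Of 15 further p53 targets tested, 1 was called with MsOc3HBC against DMSO and none with HBC530. It was SESN2, a stress-induced regulator of mTORC1 that is a target of p53 and also of ATF4. SESN2 was at 59.0, 66.4 and 63.9 CPM with DMSO, 81.4, 81.3 and 69.3 CPM with HBC530 and 120, 131 and 114 CPM with MsOc3HBC, so the 3 groups did not overlap. Its log2 fold change was 0.95 ± 0.10 with MsOc3HBC (adjusted p = 0.00198) and 0.30 ± 0.10 with HBC530 (adjusted p = 0.751). No call was made against DMSO among the 16 genes of damage signalling, the 12 of homologous recombination and the Fanconi pathway or the 9 of alkylation and base excision repair. MGMT, which removes alkyl groups from guanine in DNA, had 0 to 2 counts per library and was not tested.

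Genes that fall when p21 holds the cell cycle were also counted. None of the 8 was called, with a median log2 fold change of -0.03 with HBC530 and -0.18 with MsOc3HBC. With MsOc3HBC the values ran from -0.57 to 0.03, and the lowest adjusted p, 0.0577, was near the limit. At an unadjusted p under 0.05, 3 were lower with MsOc3HBC, where 4.78% of all genes were. The integrated stress response is set beside the members as a response with some genes called in the same libraries. Of its 5 reference genes, CHAC1 and ATF3 were called higher with HBC530 (log2 fold changes of 1.49 and 0.74). With MsOc3HBC, CHAC1, ATF3 and DDIT3 were called (2.65, 0.83 and 0.82), DDIT3 only just (adjusted p = 0.04998). ASNS (0.48 with HBC530 and 0.69 with MsOc3HBC) and TRIB3 (0.15 and 0.005) were not called with either ligand. The largest log2 fold change of a member with MsOc3HBC against DMSO was 0.50.

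Some members share exons with a gene on the opposite strand, and the strand setting of the counting is not given in the sources used here, so reads there cannot be told apart. For CHEK1 the shared part with STT3A was 1.22% of its exonic bases, for XPC with LSM3 6.63% and for CHEK2 with HSCB 7.27%, and for FAS with ACTA2 10.1%. STT3A, LSM3 and ACTA2 had higher mean counts than the member they overlap, and HSCB a lower one. MDM2 shared 1.00% with the less abundant CPM gene, and GADD45A, CDKN1A, PMAIP1 and H2AX shared none. The part of these overlaps in the values above was not tested.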

How the data were processed

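RNA-seq was analysed for 9 HEK293T samples, 3 replicates in each of 3 groups. The authors used Trimmomatic 0.36 for trimming and STAR 2.5.2b for alignment to GRCh38, counted reads per gene with featureCounts of Subread 1.5.2, and deposited raw counts. The signal columns of the deposited tables hold counts that the authors divided by DESeq2 size factors. The fold changes and p-values in those tables are the authors' own comparisons and were not used. The annotation release is not given in the sources used here.

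Counts were fitted in R 4.3.3 with edgeR 4.0.16 (filterByExpr, TMM factors, quasi-likelihood F test, Benjamini-Hochberg adjustment over all genes tested), 3 libraries against 3 in each comparison. Alternatives were DESeq2 1.42.0, limma-voom (limma 3.58.1), RLE and upper-quartile factors, no filter, a minimum of 10 counts per library, a joint fit of all 9 libraries, each library left out in turn, both ligands without replicate 3, the replicate number as a block and the block after GC content and length trends were taken out of each library (splines, 5 degrees of freedom). Taking out both trends without the block was an alternative added after seeing the data. The fits were tested on simulated data. Library totals ran from 28056929 to 62205366 counts, and intervals come from the fits, which include the spread between replicates.

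Replicate numbers are from the labels. Deviations of same-numbered libraries from their group means correlated at 0.175, 0.403 and 0.467 between the ligands, all over 0.1. The blocked fit is therefore given beside the main fit, which had no block. Libraries of unlike number correlated from -0.507 to 0.322, the highest being replicate 2 of MsOc3HBC with replicate 1 of HBC530. Replicate 3 stood apart in both ligands, so pairing cannot be told apart from a deviation shared by these libraries. Of the gene IDs, 56410 had a current name and 99.96% of those overlapped their GENCODE position. Lengths, overlaps and gene coordinates were taken from the exon positions that the authors deposited with the counts. Promoters are from RefSeq.

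The members and lists, tests and alternatives were chosen with earlier results of these data known. Values per library are given for CDKN1A, MDM2, H2AX and CHEK1, for the 5 members with the smallest p in each comparison and for any member called. Other lists are given by counts, with called genes, MGMT, ASNS and TRIB3 named. A further gene of this rule, and the list that holds it, are not reported here.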

Additional observations from a re-analysis of the deposited data

How the results depend on the processing

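With HBC530 against DMSO no member was called under any of the 16 alternatives. With MsOc3HBC against DMSO, 1 member (GADD45A) was called with DESeq2 (1.04% of genes called), without a filter on low counts (0.706%) and with the replicate block (0.851%), and 0 in the others. Between the ligands 6 were called with the replicate block, 3 with the block and both trends removed and 4 without replicate 3 of both ligands, and 0 in the other alternatives. Leaving out single libraries gave 0 calls in each comparison. Against DMSO the replicate numbers did not pair the libraries (correlations of 0.093, 0.015 and 0.183 for HBC530 and -0.117, 0.013 and 0.048 for MsOc3HBC), and the block changed no other call there. The median log2 fold change of the repair and checkpoint genes with HBC530 was -0.012 with the GC content and length trends removed, and ranged from -0.13 to -0.0038 with single libraries left out, the latter without replicate 3 of HBC530. Between the ligands this median ranged from 0.018 to 0.19 with single libraries left out, the lowest without replicate 2 of MsOc3HBC, and the median of the p53 targets from 0.058 to 0.132, the highest without replicate 1 of MsOc3HBC. Direction turned for MDM2 with MsOc3HBC against DMSO without replicate 2 (-0.0074) or replicate 3 of DMSO (-0.0075, leave-one-out range -0.0075 to 0.142), and for CHEK1 without replicate 2 of DMSO (-6.6e-05, range -6.6e-05 to 0.058). It also turned for CDKN1A between the ligands with the trends removed (0.027) and with the block and the trends removed (0.024). The cause was not tested. All other named members kept their direction under every alternative run. What share of the spread between libraries comes from counting was not tested.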
